A study of Schizosaccharomyces pombe with 28 samples.

Results

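The set described here was every feature typed as a long terminal repeat (LTR) in the annotation of the modified *S. pombe* genome that the authors deposited, 237 of its 40352 features on 3 chromosomes. The study examined how the HP1 protein Swi6 carries histone H3 lysine 9 methylation (H3K9me) through cell division, by H3K9me2 and H3K9me3 ChIP-seq in 28 libraries, 1 per genotype, antibody and tetracycline state. The 7 genotypes were wild type, clr4D, epe1D, swi6-T278Y, swi6-T278K, swi6-T278Y epe1D and swi6-T278K epe1D, without tetracycline or after 24 h with it, and 1 library was left without a group because its label names both variants. The strains carry an ade6+ reporter with tetO sites at the ura4 locus and, apart from clr4D, the methyltransferase fusion TetR-Clr4-I, which tetracycline releases from those sites. The annotation holds positions, not measurements of a library, so methylation at LTRs was not analysed here. It is a complete list, not a sample, so values carry no error and no test. A share of bases, windows or genes is given as background where one was computed.

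LTR retrotransposons copy themselves through RNA and insert the DNA copy elsewhere, duplicating a few bases of the target at the insertion. An intact element has an LTR at each end, and recombination between them leaves a single, or solo, LTR behind. In *S. pombe* the families are Tf1 and Tf2; the reference strain is known to hold full-length Tf2 elements only, and Tf1 integration is known to favour the upstream regions of genes read by RNA polymerase II. LTRs are named here by chromosome and rank from the left end, so LTR-I-28 is the 28th on chromosome I, and positions are those of the modified genome.

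The sequences of 3 elements show what an intact insertion looks like. Each line gives the start or end of an element on its own strand, with 12 bases of the outer LTR in lower case and the 5 genomic bases beside it in capitals.

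Tf2-1, start: ATTTCtgtcagcaatac

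Tf2-1, end: gcgtagcttacaATTTC

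Tf2-4, start: CTTAAtgtcagcaatac

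Tf2-4, end: gcgtagcttacaCTTAA

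Tf2-5, start: GGAATtgtcagcaatac

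Tf2-5, end: gcgtagcttacaGGAAT

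In all 3 the LTR began with TG and ended with CA, and the 5 flanking bases were the same on both sides. The outermost 12 bases of the LTRs were the same in the 3 elements, and the flanking bases differed from element to element. Tf2-1 spans chrI:1465332-1470247 on the plus strand, Tf2-4 spans chrI:3361148-3366062 on the minus strand and Tf2-5 spans chrI:3996024-4000939 on the minus strand. The letters were read from RefSeq assembly ASM294v3, in which chromosomes I and II are as long as in the modified genome.

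There were 13 full-length elements, Tf2-1 to Tf2-13, each a Tf2 gene between LTRs on its own strand, and 2 of the genes, Tf2-10 and Tf2-13, are annotated as pseudogenes. Chromosome I held 8 of them, chromosome II held 3 and chromosome III held 2. They used 25 LTRs, since Tf2-7 and Tf2-8 stand in tandem and share LTR-I-82. The remaining 212 are called solo LTRs here, whatever their origin, and include 2 that match the inside of Tf2 elements. The elements spanned 4861 to 4923 bp, with 4205 to 4224 bp between the LTRs. Both LTRs were 349 bp long in 9 elements, and the LTR pair was identical in 7.

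Tf2-1 lay between brr2, which encodes a splicing helicase, 31 bp away, and fml1, which encodes a DNA repair helicase, 603 bp away. Its LTRs, LTR-I-28 and LTR-I-29, differed at 1 of 349 positions. Tf2-4 lay 64 bp from dhp1, which encodes a nuclear exonuclease, and its LTRs LTR-I-54 and LTR-I-55 were identical. Tf2-5 lay 919 bp from SPAPB15E9.06 and 753 bp from SPAC27E2.01, and its LTRs LTR-I-62 (343 bp) and LTR-I-63 (349 bp) differed at 6 of 349 aligned positions. Between coding genes, 7 elements stood in divergent regions, 6 in tandem regions and 0 in convergent ones.

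The 5 bases outside both ends matched in 10 of 13 elements. The tandem pair made up another case, because the outer ends of the 9483-bp array of Tf2-7 and Tf2-8 (chrI:5190745-5200227) carried CTTAT on both sides. The exception was Tf2-11 on chromosome II, described here because of its values.

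Tf2-11, start: TGTCAgcaatactgcac

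Tf2-11, end: gtgtagcttacaCTTTC

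The capitals are again the flanking bases of the annotated edges, and TGTCA is the sequence with which Tf2-1, Tf2-4 and Tf2-5 begin, so the annotated edge lay inside the LTR. With the start moved 5 bases outwards the flanks were GTAGC and CTTTC, still without a repeat. The LTRs of Tf2-11 were also the least alike of any element, 78.3% identical over 350 aligned positions, gaps included. LTR-II-58, the 293-bp LTR at its start, is 56 bp shorter than LTR-II-59 at its end.

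The LTRs were 75 to 412 bp long, with a median of 346 bp and quartiles of 323 and 350 bp. The commonest length was 349 bp, found in 40 LTRs, followed by 358 bp in 13, 344 bp in 12 and 348 bp in 10. In all, 140 LTRs (59.1%) lay within 10 bp of the commonest length, 45 (19.0%) were under 300 bp and 3 were under 100 bp. The shortest were LTR-III-31 (75 bp), LTR-II-51 (80 bp) and LTR-I-10 (89 bp), and the longest were LTR-I-80 (412 bp), LTR-I-15 (374 bp) and LTR-II-36 (366 bp).

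**Figure D1:**
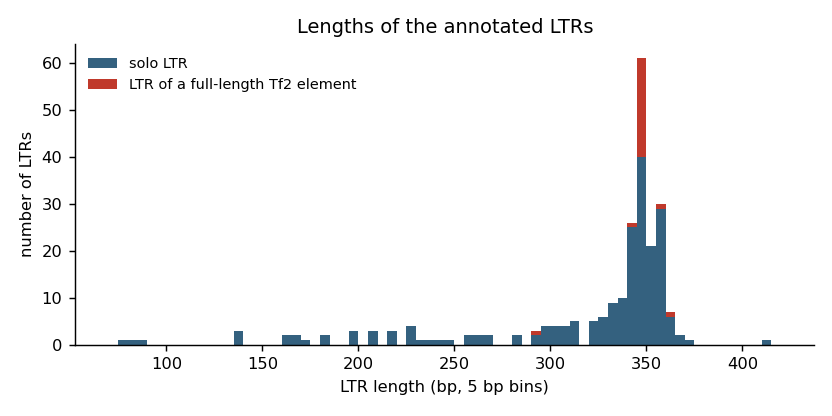
Number of LTRs (vertical axis) by length in bp (horizontal axis, 5-bp bins), with the 25 LTRs of full-length Tf2 elements and the 212 solo LTRs stacked. The tallest bin holds the 349-bp LTRs, and solo LTRs reach down to 75 bp.

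By sequence, 162 LTRs joined into 1 group in which each was at least 80% identical to another member over at least 80% of the shorter LTR. A further 5 groups were pairs, and 65 LTRs stayed single. The first 60 bases of a solo LTR of median length from the large group, and of the shorter member of the first 2 pairs along the genome, show how far they differ, with the first 2 bases in capitals.

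LTR-I-14: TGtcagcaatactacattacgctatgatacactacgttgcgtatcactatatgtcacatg

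LTR-I-2: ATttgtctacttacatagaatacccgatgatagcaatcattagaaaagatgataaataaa

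LTR-II-3: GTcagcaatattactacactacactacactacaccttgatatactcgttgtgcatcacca

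LTR-I-14 (chrI:397023-397370, minus strand) belongs to the group of 162 and begins like the Tf2 elements. LTR-I-2 (chrI:24281-24445, minus strand) and its only partner, LTR-II-1, were 99.4% identical over 164 bp, and both lie near a chromosome end. LTR-II-3 (chrII:2756-3054, minus strand) and its only partner LTR-I-4 were identical over 299 bp, again near chromosome ends. LTR-II-3 begins with GTcagcaata, which is the start of LTR-I-14 less its first base.

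At 95% identity, a level chosen after the data were seen, the LTRs split into a group of 57 and a group of 23, with 157 LTRs in neither. The first had a commonest length of 349 bp and held 24 of the 25 LTRs of full-length elements. The second had a commonest length of 358 bp and held 22 solo LTRs and LTR-II-58, the LTR at the start of Tf2-11. LTR-II-58 was 97.1% identical to LTR-I-66 of the second group over 238 aligned bp. Its best match in the first group, LTR-II-37, was 82.7% identical over 329 bp. Over the whole length, gaps included, LTR-II-58 was 77.1% identical to LTR-I-39 of the first group and 77.7% to LTR-I-20 of the second. LTR-II-59, at the other end of Tf2-11, was 99.7% identical to LTR-I-29 of the first group over 349 bp. The files hold no Tf1 sequence, so whether the second group belongs to Tf1 was not tested.

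The first 120 bases of the first solo LTR of median length in each group mark where they part, with capitals from the first difference on.

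LTR-I-39: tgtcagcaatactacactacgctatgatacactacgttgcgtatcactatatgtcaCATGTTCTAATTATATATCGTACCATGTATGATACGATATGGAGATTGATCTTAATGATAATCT

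LTR-I-20: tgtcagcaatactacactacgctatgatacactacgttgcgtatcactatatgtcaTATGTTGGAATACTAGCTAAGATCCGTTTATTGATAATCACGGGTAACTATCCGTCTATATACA

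LTR-I-39 (chrI:2474235-2474583, minus strand) stands for the 349-bp group and LTR-I-20 (chrI:1004892-1005249, plus strand) for the 358-bp group. Their first 56 bases were the same, and over the whole length they differed at 54 of 363 aligned positions (85.1% identity). LTR-I-20 lies 87 bp upstream of sod1, which encodes superoxide dismutase.

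The bases beside the LTRs were not used to form the groups. The same 5 bases flanked both edges of 15 of 33 solo LTRs (45.5%) in the 349-bp group and of 15 of 22 (68.2%) in the 358-bp group. Among the 157 LTRs in neither group it was 9 (5.73%). Over all 237 LTRs, 39 (16.5%) had the repeat, against 3 of 473 windows (0.634%) of the same lengths 1 kb to either side and 1 of 171 tRNA features (0.585%). Each LTR was taken alone here, so an element's outer repeat does not count, and all 39 were solo LTRs. TG at the start and CA at the end were found in 91 LTRs (38.4%), and the repeat was present in 35 of the 70 solo LTRs with both and in 4 of the 142 without (2.82%).

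Of the 212 solo LTRs, 113 had a match to an LTR of a full-length element over at least 80% of the shorter one. Their identity ranged from 66.6% to 100%, with a median of 90.5%. It was 95% or more in 46, from 80% to 95% in 25 and under 80% in 42, and 5 solo LTRs were identical to an element's LTR. The element LTRs include LTR-II-58, so members of the 358-bp group also count among the 46. LTR-I-66 was counted at 97.1%, its identity to LTR-II-58 over 238 bp. LTR-I-20 was counted at 96.2%, yet was 85.1% identical to LTR-I-39 of the 349-bp group over the whole length.

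GC content was 32.6% over all LTR bases, against 36.1% in the reference genome. The genome value includes coding genes, and GC content outside them was not computed. The core promoter motif TATAAA, searched on both strands, was present in all 25 LTRs of full-length elements and in 172 of the 237 (72.6%). Of consecutive 349-bp windows of the genome, 39.0% held it, and of those outside coding genes 53.7%. In the 349-bp group 57 of 57 held it, in the 358-bp group 21 of 23 (91.3%), and among the others 94 of 157 (59.9%). The 2 groups were formed by sequence identity and hold the 25 element LTRs. A motif present or absent in them is thus largely that of similar copies, not of independent LTRs. TGACGT, the core of the sites bound by the stress factors Atf1 and Pcr1, was present in 5 LTRs (2.11%) and in 0 of the 25 element LTRs, against 5.56% of all windows. These are matches of letters, and no binding was measured.

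Chromosome I held 89 LTRs, chromosome II held 69 and chromosome III held 79. That is 16.0, 15.2 and 32.2 per Mb, so the shortest chromosome had 2.02 times the density of I and 2.12 times that of II. Chromosome III makes up 19.5% of the annotated sequence, whose lengths all densities here use, and held 33.3% of the LTRs. LTRs covered 0.603% of all bases, with 0.515% on I, 0.476% on II and 1.04% on III. Median lengths were 349, 344 and 344 bp, so the higher density on III was one of number and not of length. The surplus on III was of solo LTRs, which numbered 74, 63 and 75 on I, II and III.

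**Figure D2:**
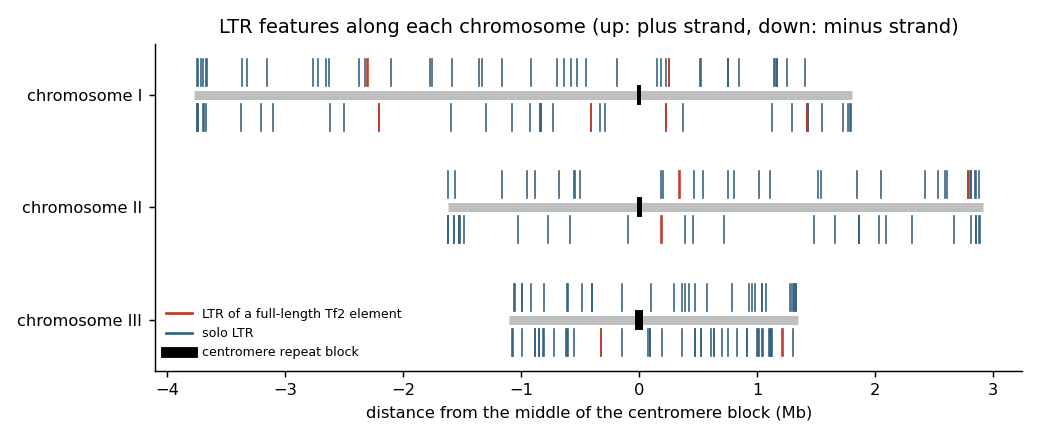
Each LTR drawn at its distance in Mb from the middle of the centromere repeat block (black) along each chromosome (grey), above the line on the plus strand and below it on the minus strand. Red marks stand for LTRs of full-length Tf2 elements and blue ones for solo LTRs, which crowd at chromosome ends and leave a gap at each centromere.

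The LTRs were split over both strands, with 115 (48.5%) on the plus strand and 122 on the minus strand. The plus share was 53.9% on I, 50.7% on II and 40.5% on III. Of full windows of 100 kb, 16 of 55 on I, 16 of 45 on II and 3 of 24 on III had no LTR. With gaps under 5 kb between neighbours, 109 LTRs (46.0%) fell in 44 clusters, 30 of them pairs. The share in clusters was 38.2% on I, 39.1% on II and 60.8% on III. The largest cluster held 6 LTRs, LTR-I-1 to LTR-I-6, in 12023 bp near the left end of chromosome I. A compact one, named for its size, was LTR-II-44 to LTR-II-47, with 4 LTRs on the minus strand within 1308 bp (chrII:3489303-3490610). It stood between zfs1, which encodes a zinc finger protein that binds mRNA, and SPBPB7E8.01. There were 7 pairs of overlapping LTR features, which shared 1 to 153 bases and lay on opposite strands in 5.

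Chromosome ends were rich in LTRs. An end here is the first or last base of the annotated sequence, and how far it lies from the telomere was not examined. Within 100 kb of an end there were 44 LTRs (18.6%), where 4.77% of bases lie, a density of 73.3 per Mb against 16.1 per Mb elsewhere. Close copies were counted separately. LTR-II-8 to LTR-II-10, for example, belong to a group of 4 LTRs of 344 bp that held together at 98% identity. The left and right ends held 12 and 4 on chromosome I, 10 and 7 on II, and 4 and 7 on III. The 3 densest windows of 100 kb were the first of chromosome I with 12 LTRs, the first of II with 10, and chrII:4400001-4500000, also with 10, which holds Tf2-11. They held 32, 32 and 29 coding genes.

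The outermost LTR lay 996 bp from the left end of II (LTR-II-1) and 8750 bp from the right end of I (LTR-I-89). LTR-II-1 to LTR-II-4, from chrII:997, fell in turn into the same groups at 95% identity as LTR-I-2 to LTR-I-5, from chrI:24281. Distances from an end are thus not comparable between these 2 ends. At the other 4 ends it lay 15103 to 26342 bp away (LTR-III-79, LTR-I-1, LTR-II-69 and LTR-III-1, nearest first). Of the 44 LTRs near an end, 1 belonged to the 349-bp group, 1 to the 358-bp group and 42 to neither. The groups as a whole had 57, 23 and 157 members, so the LTRs at chromosome ends were mostly not copies close to those of full-length elements.

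Centromeres were poor in LTRs. The annotation does not name its centromere repeats. The block of each chromosome was therefore taken as the run with the most repeat features, among runs over 100 kb from both ends. It was 35735 bp long on I, 41056 bp on II and 66100 bp on III. There were 0 LTRs inside any block and 1 within 50 kb (0.422% of LTRs, against 3.52% of bases), LTR-III-30 at 39246 bp. The nearest on I lay 134806 bp away and on II 70740 bp away. The stretch without LTRs around the block was 337804 bp on I, 272820 bp on II and 217318 bp on III. Such stretches also occur elsewhere: these 3 ranked 3rd, 9th and 13th among 233, and the longest, 411948 bp on chromosome II, holds no centromere.

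Most LTRs lay between genes. Of the 237, 171 (72.2%) touched no gene of any kind other than Tf2 genes, and 196 (82.7%) touched no coding gene, against 15.0% of consecutive 349-bp windows. The median distance was 58 bp to the nearest gene and 102 bp to the nearest coding gene, with quartiles of 32 and 384 bp for the latter. Within 500 bp of a coding gene were 187 LTRs (78.9%), and 6 lay over 2 kb from one. For comparison, tRNA genes lay at a median of 471 bp from a coding gene, but 54 of the 170 stand within 10 kb of a centromere block. The distance for windows between genes was not computed. Whether LTRs lie closer to genes than other places between genes was therefore not tested. Of noncoding RNA genes, 39 of 1566 (2.49%) were touched by an LTR, and of coding genes 43 of 5109 (0.842%).

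The 41 LTRs that touched a coding gene did so in its untranslated regions in 42 of 43 cases. Of these overlaps, 26 reached a 5′ UTR, 16 a 3′ UTR and 0 an intron. In 20 of the 43, fewer than 50 bases were shared, and 4 LTRs lay wholly inside a gene. The only one to reach a coding sequence was LTR-II-15, with 6 bases of naa38, which encodes a subunit of an N-terminal acetyltransferase. Most bases were shared by LTR-I-44 with the 5′ UTR of amt3, an ammonium transporter gene (271 bases), and by LTR-II-21 with the 3′ UTR of yea4, a predicted sugar nucleotide transporter gene (258 bases). Next were LTR-I-57 in the 3′ UTR of the RING finger gene dbl4 (209 bases), LTR-I-58 in the 5′ UTR of mnr2, which encodes a magnesium transporter (206 bases), and LTR-I-24 in the 3′ UTR of mug115 (184 bases). LTR-I-44 is the LTR at the end of Tf2-3.

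LTRs outside coding genes faced gene starts more often than ends. For 157 of the 196 (80.1%) the nearest coding gene turned its 5′ end to the LTR, where 64.2% of intergenic bases are nearest to a 5′ end. The share was 77.6% on I, 83.6% on II and 80% on III. It was 85.4% in the 349-bp group (41 of 48), 68.8% in the 358-bp group (11 of 16) and 79.5% among the others (105 of 132). The background of 64.2% counts every intergenic base, also in gaps too short for an LTR. A background of places that could hold a whole LTR was not computed. LTRs at 5′ ends lay closer, at a median of 119 bp (quartiles 55 and 434 bp), than the 39 at 3′ ends, at 314 bp (quartiles 112 and 610 bp). By their labels, 83 of the 157 (52.9%) and 21 of the 39 (53.8%) lay on the strand of the gene, and 76 (48.4%) and 23 (59.0%) with the strand turned for the 15 LTRs whose label most sequence matches contradict.

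**Figure D3:**
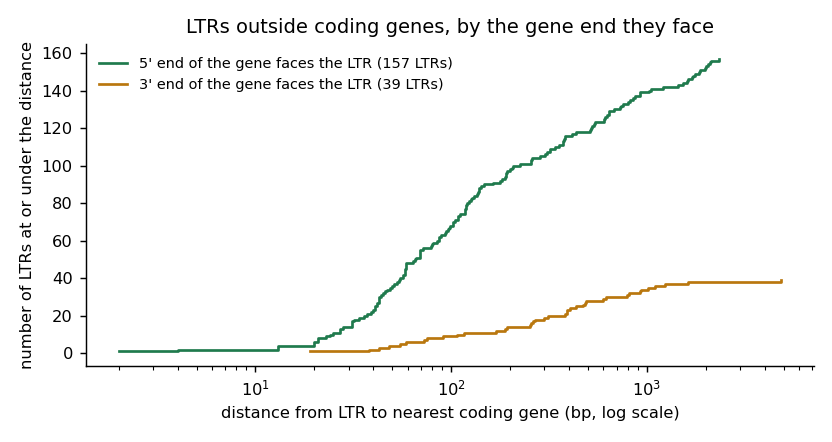
Number of LTRs (vertical axis) at or under each distance in bp to the nearest coding gene (horizontal axis, log scale), for the 157 LTRs that face the 5′ end and the 39 that face the 3′ end of that gene. The curve for 5′ ends rises earlier, with a median of 119 bp against 314 bp.

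Regions between convergent genes, which have no gene start, held few LTRs. They held 5 of the 196 LTRs (2.55%) and 10.3% of intergenic bases. Divergent regions, where both neighbours start, held 94 LTRs (48.0%) and 40.7% of bases, and tandem regions held 95 (48.5%) and 46.9% of bases. Convergent regions were the shortest on average, with 257108 bases in 520 regions, against 1015187 in 1086 divergent and 1168526 in 1962 tandem ones. These LTRs lie whole between coding genes, and the share of places long enough for one was not computed. Whether convergent regions hold fewer LTRs than their lengths allow was therefore not tested. Counted from the genes, 219 of 5109 coding genes (4.29%) had an LTR within 1 kb of the 5′ end and 92 (1.80%) within 1 kb of the 3′ end. These counts do not cover all 339 coding genes with an LTR within 1 kb, as some with an overlapping LTR were counted at neither end.

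tRNA genes, beside which the Ty1 and Ty3 retrotransposons of *S. cerevisiae* are known to insert, were not rich in LTRs here. Within 1 kb of a tRNA gene lay 6 LTRs (2.53%), and 2.21% of bases. The closest was LTR-I-16 (chrI:446075-446342), 3 bp from a tRNA-Val gene. The others lay 327 to 746 bp away, at tRNA-Thr, tRNA-Pro, tRNA-Gly, tRNA-Val and tRNA-Gln genes. Of the 170 tRNA genes, 54 lay within 10 kb of a centromere block, where LTRs were absent. Of the 33 5S rRNA genes, 1 had an LTR within 1 kb (3.03%, against 6.64% of coding genes).

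**Figure D4:**
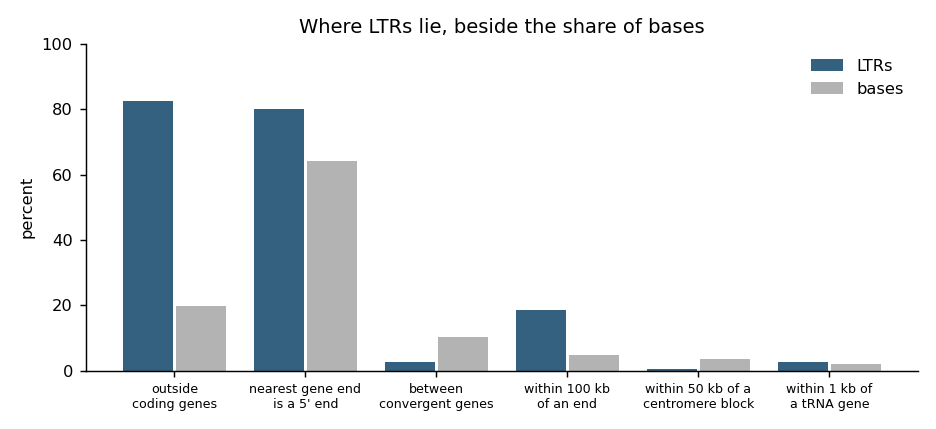
Percent (vertical axis) of LTRs (blue) beside the percent of bases (grey) in 6 kinds of place. The pairs for gene ends and convergent genes are over the 196 LTRs and the bases outside coding genes, and the others over all LTRs and all bases. Bases in gaps too short for an LTR are counted. LTRs exceed bases outside coding genes (82.7% against 19.8%), at 5′ ends and within 100 kb of an end, and fall short between convergent genes and at centromeres.

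The wtf genes, a family in which drivers of meiotic transmission encode a poison and its antidote and other members an antidote alone or neither, stood beside LTRs. Of 25 wtf genes, 23 of them on chromosome III, 21 (84.0%) had an LTR within 1 kb, and 5 of the 25 are not coding in the annotation. Of coding genes, 339 of 5109 (6.64%) had one. On chromosome III alone the share of coding genes was 12.2% (112 of 916). Within 100 bp were 12 wtf genes, and within 400 bp 20. The closest after wtf20, which overlapped LTR-III-54, were wtf23 (19 bp), wtf25 (28 bp), wtf21 (31 bp), SPCC553.05c (34 bp), wtf16 (35 bp), wtf14 (38 bp), wtf15 (45 bp), wtf11 (48 bp) and wtf9 (55 bp). Without an LTR within 1 kb were wtf17 (2386 bp), wtf5 (8727 bp), wtf7 (21176 bp) and wtf8 (45441 bp).

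**Figure D5:**
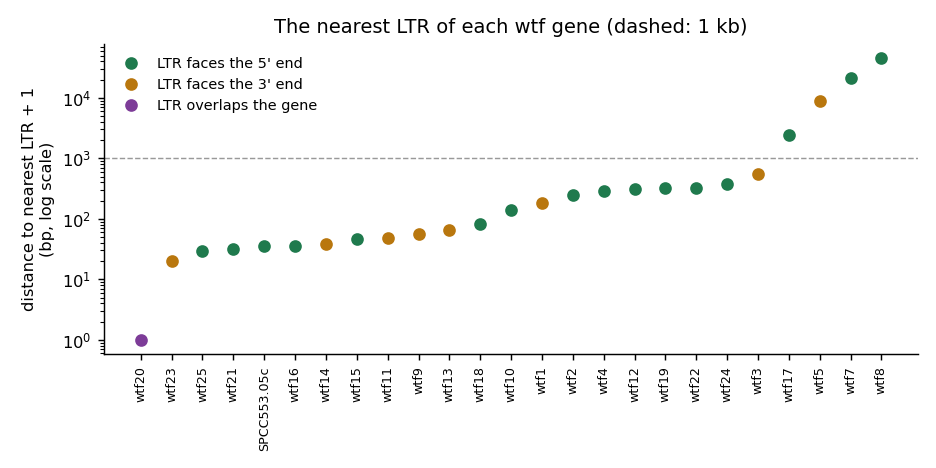
Distance in bp plus 1 (vertical axis, log scale) from each of the 25 wtf genes (horizontal axis, nearest first) to its nearest LTR, coloured by the gene end that faces the LTR. The 21 genes below the dashed line at 1 kb range from wtf20, which overlaps an LTR, to wtf3 at 542 bp.

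The nearest LTR faced the 5′ end of 13 of the 21 and the 3′ end of 7, and by its label it lay on the strand of the gene in 15. For 3 of these, wtf2, wtf3 and wtf25, most sequence matches of the LTR (LTR-II-14, LTR-III-9 and LTR-III-68) lay on the opposite strand, as described for the reporter's neighbour below. With such labels turned, the count was 12 of 21. LTRs stood within 1 kb on both sides of 6 wtf genes. Neighbouring wtf genes share LTRs: LTR-III-35 lies 48 bp after wtf11 and 311 bp before wtf12, and LTR-III-44 lies 38 bp from wtf14 and 45 bp from wtf15. In all, 28 LTRs lay within 1 kb of a wtf gene, 26 of them on chromosome III. Without those 26, chromosome III kept 53 LTRs, 21.6 per Mb, against 16.0 on I and 15.2 on II with theirs. Of the 28, 4 belonged to the 349-bp group, 3 to the 358-bp group and 21 to neither.

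The reporter stands beside LTRs on one side only. It occupies chrIII:115325-118393, 3069 bp of the modified genome, and LTR-III-7 (chrIII:114382-114730, 349 bp) lay 594 bp from it. LTR-III-6 and LTR-III-5 followed on the same side at 3764 and 6461 bp. On the other side the next was LTR-III-8 at 69926 bp, so the reporter stood at the edge of a stretch of 73589 bp without LTRs, the 57th longest of 233. LTR-III-7 is annotated on the plus strand, but its sequence reads like other LTRs on the opposite strand. Its first 30 bases are shown on both strands, with the opening TG in capitals on the strand that matched.

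LTR-III-7, strand as labelled: tgtaagctacgcagtttggtatctgattta

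LTR-III-7, opposite strand: TGtcagcaatactacactacgctatgatac

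The second line has the first 30 letters of LTR-I-39 above. Of the 10 best matches of LTR-III-7 among other LTRs, 9 lay on the other strand. The best, LTR-III-63, was 99.1% identical over 349 bp.

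Such strand labels recurred. Of the 228 LTRs with a match to another LTR, 15 had most of their 10 best matches on the other strand, and 8 had all of them there. The reference annotation gives the other strand for 5 LTRs, LTR-II-15, LTR-II-24, LTR-II-36, LTR-II-54 and LTR-II-56, and all 5 were among the 15. LTR-III-3 and LTR-III-7 carry the same strand in both annotations. With the 8 turned, 113 LTRs lay on the plus strand in place of 115, and with all 15 turned, 112.

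For the genes the study manipulates, LTR-II-13 overlapped clr4, which encodes the H3K9 methyltransferase, by 10 bases at its 5′ edge. The nearest LTR to swi6 was LTR-I-32 at 38576 bp and the nearest to epe1 was LTR-III-35 at 29829 bp. At the meiotic genes mei4 and ssm4, which lie in facultative heterochromatin islands, the nearest annotated LTRs were LTR-II-23 at 57333 bp and LTR-I-71 at 8747 bp. A match that is not annotated as an LTR, chrI:4528282-4528963, given below, lies nearer to ssm4. Of 22 genes for heterochromatin factors, 2 had an LTR within 1 kb (9.09%), clr4 and raf2, which encodes a subunit of the Clr4 complex and lay 25 bp from LTR-III-21. All coding genes gave 6.64%.

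Other lists were described in the same way. Of 12 genes for factors known to act on Tf elements, such as sap1 and atf1, 0 had an LTR within 1 kb and 2 had one within 5 kb (16.7%, against 16.3% of all coding genes). Of 25 stress genes found, 2 had one within 1 kb, sod1 (87 bp) and tps1 (775 bp), which encodes an enzyme of trehalose synthesis, and 6 had one within 5 kb (24%). Of the 8 hexose transporter genes, 0 had one within 1 kb and 3, ght3, ght5 and ght8, had one within 5 kb (37.5%), again against 16.3%. The subtelomeric helicase genes tlh1 and tlh2 had none within 5 kb.

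The LTR type did not always match the sequence. LTR-III-32 (chrIII:1197365-1197715, 351 bp), labelled as a Tf2 fragment, matched the inside of all 13 full-length elements at 96.6% identity over 350 bp. LTR-I-46 (chrI:2939937-2940229) matched the inside of all 13 over up to 126 bp at 97.6% to 100%. Outside annotated LTRs, the LTRs of full-length elements had 2 matches of at least 80% identity and 100 bp. One, chrI:4715792-4716149, is 358 bp long, and the reference annotation, which lists 238 LTRs, has it as an LTR. The other, chrII:4511456-4511628, covers 173 bp near the right end of chromosome II.

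With all LTRs other than LTR-III-32 and LTR-I-46 as queries, a choice made after the data were seen, the genome held 20 such places, 15 of them within 100 kb of a chromosome end. Near the right end of chromosome II, chrII:4509870-4510212 was identical to LTR-I-4 over 343 bp, chrII:4511333-4511629 to LTR-I-3 over 296 bp and chrII:4511709-4511928 to LTR-II-1 over 219 bp. Inside chromosome I, chrI:4527951-4528179 was identical to LTR-I-69 over 229 bp and chrI:4528282-4528963 to LTR-I-70 over 355 bp. The counts of LTRs at chromosome ends and the distances given above include only annotated features.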

How the data were processed

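The deposited annotation of the modified genome, exported by the authors from Geneious 7.1.5, records where each feature starts and ends and holds no measured value. The submitters' processing notes name Trimmomatic and BWA for the 28 ChIP-seq libraries, with neither versions nor a genome build in any source used. Read coverage was not used here. Chromosomes I and II have the length of RefSeq ASM294v3. Chromosome III is 2452289 bp long against 2452883 bp, and its 79 LTRs were paired with those of the reference by rank, with equal lengths. Sequences came from the reference, and the study's own sequence of the modified genome was not used here.

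Distances count the bases between nearest edges. Tf2 genes were left out as neighbours, and the 170 tRNA genes and 5109 coding genes were taken from the annotation. An element was a Tf2 gene with an LTR of its strand within 400 bp on each side. Repeat features under 10 kb apart formed a centromere block. LTRs were compared by blastn 2.17.0 (e-value 1e-05), and pairs by global alignment in Biopython 1.88, under Python 3.11.15 with numpy 2.4.6, scipy 1.17.1 and matplotlib 3.10.9. The measures were tested on simulated data. The LTRs and gene lists were chosen with earlier results of these data known.

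LTRs named were those of elements (at most 3 in full), the 3 longest and shortest, the nearest to each chromosome end, centromere block, the reporter and swi6, clr4, epe1, mei4 and ssm4, those in the densest windows, and the 5 with the most bases in coding genes. Other LTRs were named after their values were seen. Of the stress genes listed, 25 of 27 were found. Alternatives changed the distances, the features counted and the match thresholds.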

Additional observations from a re-analysis of the deposited data

How the results depend on the processing

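Of 54 alternatives to 17 values, 41 left the value within 1.5 times (counts and densities) or, for shares and medians, within the 95% interval that a sample of that size would have, which served only as a yardstick for this complete list. The share of LTRs outside genes was 72.2% with all genes, 82.7% with coding genes only and 99.6% with coding sequence spans. The median distance to the nearest gene was 58 bp, 102 bp to coding genes only and 226 bp from the middle of the LTR. Near centromere blocks there were 0 LTRs within 20 kb and 5 within 100 kb, and 25 lay within 50 kb of a chromosome end. Matches outside annotated LTRs numbered 1 at 90% identity and 1 at 200 bp, and 20 with nearly all LTRs as queries. Sequence groups, 71 at 80% identity, numbered 123 at 90% and 145 at 95%, and clusters fell from 44 to 22 with gaps under 2 kb. The alternatives behind the last 4 values were chosen after the data were seen. No paired analysis was possible because no result comes from a test or from samples.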
